A study of Mus musculus with 24 samples.

Results

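Lipocalin-2 and 9 further genes of iron handling are described here, 10 of the 24411 genes in the deposited tables. Their products are the siderophore-binding protein lipocalin-2 (*Lcn2*), the metalloreductase *Steap4*, the importers *Slc39a14* and *Tfrc*, and the phagosomal transporter *Slc11a1*. The others are the ferroxidase ceruloplasmin (*Cp*), the exporter ferroportin (*Slc40a1*), the ferritin chains *Fth1* and *Ftl1*, and heme oxygenase 1 (*Hmox1*). They were put together by function, by gene symbol, with earlier results of these data known. *Lcn2* and *Steap4* were selected on their rise in activated WT astrocytes, so their values in that comparison are given as a description, with no test.

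The study measured polyadenylated RNA by bulk RNA sequencing in cultured mouse astrocytes and microglia, to ask how cells that carry the ALS-linked *SOD1G93A* transgene differ from wild-type (WT) cells at rest and after activation. The 21 libraries used here form 7 conditions of 3 replicates. Astrocytes came from forebrain cortex at postnatal day 5, were taken by binding to an antibody to HepaCAM after cells that bind CD45 antibody (microglia), the lectin BSL I (endothelium) or O4 antibody (oligodendrocyte lineage) had been removed, and grew without serum. WT and *SOD1G93A* astrocytes were each either quiescent, given PBS, or activated with 3 factors, namely C1q (400 ng/mL), TNFα (30 ng/mL) and IL-1α (3 ng/mL). Microglia came from whole brain at postnatal days 7 to 10, were taken with magnetic beads against CD11b, and also grew without serum. WT microglia were quiescent, given PBS, or treated with lipopolysaccharide (LPS) at 50 ng/mL, and *SOD1G93A* microglia are used here only after the same LPS treatment. The transgene, a mutant human SOD1, was carried on a C57BL/6J background. The microglia medium held apo-transferrin and the astrocyte medium was another one, so differences between the cell types cannot be told apart from isolation, age and medium. Responses of the cell types also differ in stimulus, the 3 factors against LPS, and no difference between their responses was tested.

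Cells take up iron bound to transferrin through the transferrin receptor, or unbound iron through importers such as *Slc39a14*, store it in a shell of ferritin heavy and light chains, and release it through ferroportin with the help of a ferroxidase such as ceruloplasmin. Iron regulatory proteins bind hairpins in the mRNAs of ferritin, ferroportin and the transferrin receptor, which lets iron set their translation or stability. In infection and inflammation lipocalin-2 withholds iron from bacteria by binding their siderophores, and it is a known marker of reactive astrocytes.

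Levels are RPM, a gene's reads scaled to the same total in every library, as the mean ± SD of 3 libraries (SD, n = 3), and libraries held from 2016139 to 11570122 reads. A level in 1 library at or under 3 reads, which is 0.259 to 1.49 RPM at these depths, is not told apart from 0 by counting error alone. Differences are log2 fold changes between log2 normalized counts, fitted in limma with its trend for intensity, for genes with a mean count of at least 10. A gene is called at an adjusted p under 0.001 and more than a 2-fold change, the limits of the study's own plots, with p-values adjusted over all genes tested. The labels do not say whether replicates are separate cultures or animals, so p-values measure the spread between these samples. In these bulk samples fewer cells of a type and less RNA per cell cannot be told apart.

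Among the 9 genes tested in WT astrocytes, 6 were higher after activation and 0 lower, beside 6.0% and 5.54% of 12336 genes; nothing is read from that count, since the contrast chose *Lcn2* and *Steap4*. The same test in *SOD1G93A* astrocytes called 6 of 9 higher and 0 lower, beside 6.74% and 6.59% of 12269 genes. These 6 were *Lcn2*, *Steap4*, *Slc39a14*, *Cp*, *Fth1* and *Hmox1*, and the last 4 were called in WT astrocytes too. The groups compared are separate libraries, while the *SOD1G93A* fit takes its scaling and variance from all 12 astrocyte libraries, WT included. Its count holds *Lcn2* and *Steap4* too, and is no independent support for their WT rise. In WT microglia LPS raised 4 of the 10 genes, *Lcn2*, *Cp*, *Fth1* and *Slc11a1*, and lowered 1, *Slc40a1*, where 10.2% of 10866 genes were higher and 10.6% lower. The median log2 fold change of the genes tested was 1.76 in *SOD1G93A* astrocytes and 0.08 in microglia, against 0.00 and 0.00 over all genes tested.

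**Figure D1:**
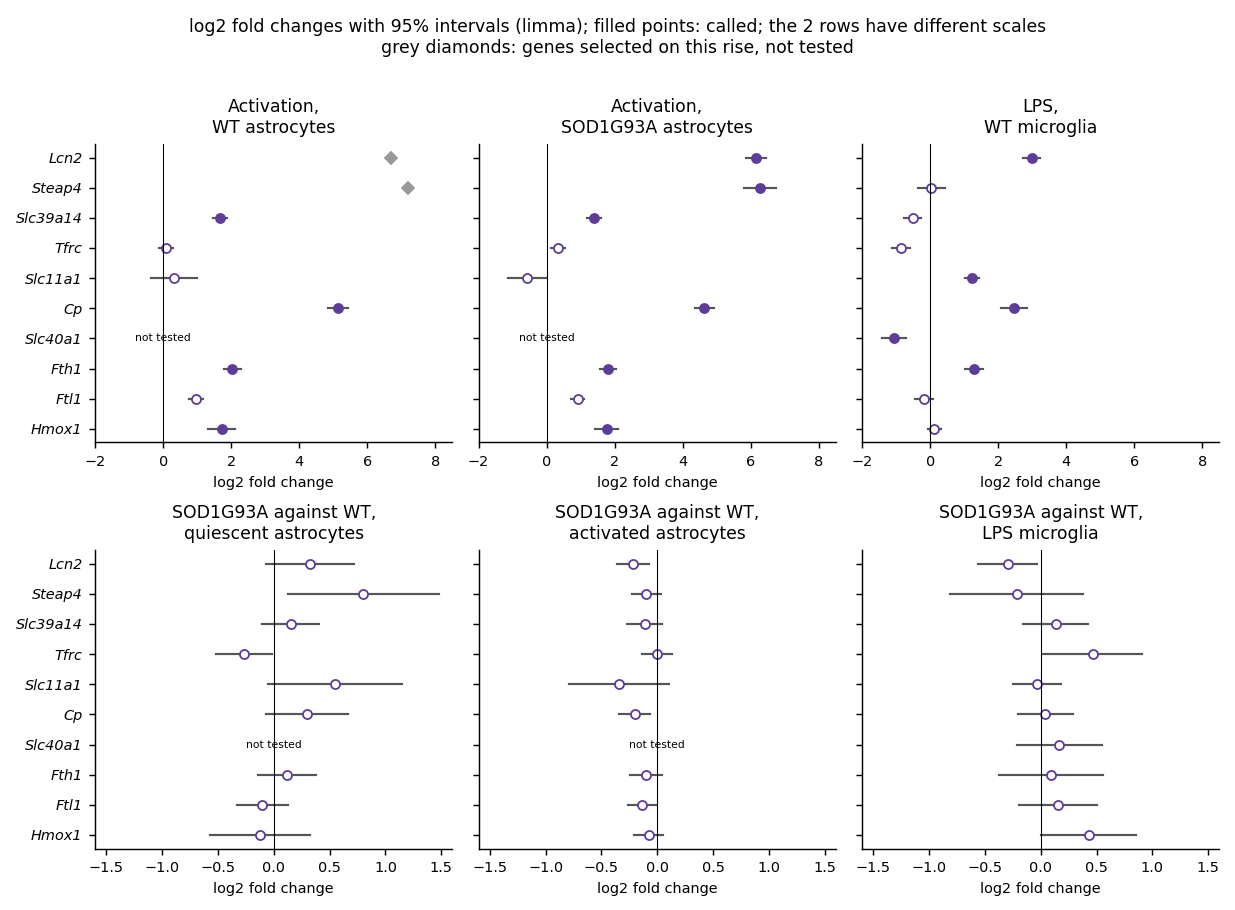
Log2 fold changes of the 10 genes in 6 comparisons, with 95% intervals from limma as lines; filled points were called at an adjusted p under 0.001 and more than 2-fold, open points were not, grey diamonds mark *Lcn2* and *Steap4* where they were selected and are not tested, and *Slc40a1* was not tested in astrocytes. In the upper row *Lcn2* and *Cp* lie right of 0 in all 3 panels, at 2.46 to 6.70, while the lower row, on its own narrower scale, holds no filled point.

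*Lcn2* was far lower in every quiescent condition than in activated astrocytes. It stood at 23.3, 33.3 and 34.1 RPM in WT quiescent astrocytes, at 37.9, 43.6 and 33.1 in *SOD1G93A* quiescent astrocytes, and at 31.0, 29.4 and 29.4 in WT quiescent microglia. After activation it reached 3266, 2986 and 2989 in WT astrocytes, and 2468, 2823 and 2452 in *SOD1G93A* astrocytes. WT quiescent astrocytes overlapped both other quiescent groups, *SOD1G93A* quiescent astrocytes lay just above WT quiescent microglia, an order that median-ratio scaling turned round (30.7 and 35.4), and every activated library lay far above every quiescent one. The WT rise on which the gene was selected was a log2 fold change of 6.70, and 6.51 without replicate 1 of the WT quiescent astrocytes. In *SOD1G93A* astrocytes the rise was 71.5-fold, a log2 fold change of 6.16 (SE 0.14, limma adjusted p = 9.97e-15, higher in 3 of 3 libraries). It is no independent support for the WT rise. Earlier results of these data were known when the gene was chosen, and the fit shares scaling and variance with the WT libraries. Per kilobase of its transcript, *Lcn2* was at 3366 ± 176 RPM in WT activated astrocytes, second among the 10 genes to *Fth1*.

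*Lcn2* also rose in microglia given LPS. The WT libraries held 245, 179 and 195 RPM after LPS, 7.89-fold above quiescent WT microglia, a log2 fold change of 2.98 (SE 0.11, adjusted p = 5.02e-09). The *SOD1G93A* LPS libraries held 166, 167 and 164. Both sets lay above all quiescent libraries and below all activated astrocytes, and every *SOD1G93A* LPS library lay below every WT one.

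*Steap4*, a reductase of iron and copper at the cell surface and in endosomes, rose in activated astrocytes. WT quiescent astrocytes held 6.94, 7.97 and 14.9 RPM and *SOD1G93A* quiescent astrocytes 17.95, 21.1 and 12.5. Activated astrocytes held 1422, 1367 and 1324 in WT and 1191, 1329 and 1219 in *SOD1G93A*. The activated groups overlapped each other, as the quiescent ones did, and activated lay far above quiescent in all libraries. In *SOD1G93A* astrocytes the log2 fold change was 6.28 (SE 0.22, adjusted p = 6.93e-13), a 77.6-fold rise. The limit given for *Lcn2* in this comparison holds for *Steap4* as well. The WT rise on which the gene was selected was a log2 fold change of 7.18 with all libraries and 7.53 without replicate 3 of the WT quiescent astrocytes. In microglia *Steap4* stayed at 13.7 ± 2.47 RPM when quiescent and 12.01 ± 1.91 after LPS, a log2 fold change of 0.03 with a 95% interval from -0.36 to 0.42 (adjusted p = 0.891). The *SOD1G93A* LPS microglia were at 10.7 ± 4.13, so all 5 conditions outside activated astrocytes overlapped their neighbours in the order of levels.

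*Slc39a14* encodes ZIP14, a carrier of unbound iron, zinc and manganese. It rose in activated astrocytes, from 37.2, 37.4 and 34.2 RPM to 118, 117 and 105 in WT. The *SOD1G93A* libraries went from 36.4, 43.0 and 43.7 to 97.3, 110.4 and 98.3. No activated library overlapped a quiescent one in either genotype. The log2 fold changes were 1.66 in WT (SE 0.09, limma adjusted p = 1.83e-07) and 1.39 in *SOD1G93A* (SE 0.09, adjusted p = 1.76e-09). WT quiescent microglia held 115, 109 and 112 and WT LPS microglia 58.4, 70.2 and 74.7. Their order against activated astrocytes depends on the scaling: median-ratio scaling put WT activated astrocytes, at 93.0, below *SOD1G93A* LPS microglia, at 100.9, and *SOD1G93A* activated astrocytes, at 85.6, below both LPS groups. All 3 LPS libraries lay below all 3 quiescent ones, by a log2 difference of -0.52 that is under the 2-fold limit (SE 0.11, adjusted p = 0.0025).

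*Tfrc*, the transferrin receptor, is the main route of transferrin iron into cells, and it was called in none of these 3 comparisons. WT quiescent astrocytes held 126, 134 and 144 RPM and WT activated ones 143, 136 and 139. These groups overlapped, with a log2 fold change of 0.08 and a 95% interval from -0.12 to 0.28 (adjusted p = 0.542). In *SOD1G93A* astrocytes the values were 119, 121 and 101 when quiescent and 139, 136 and 132 when activated, which do not overlap, with a log2 fold change of 0.34 that was not called (SE 0.09, adjusted p = 0.0080). Microglia had less *Tfrc* than astrocytes in every library, at 50.3, 52.1 and 51.0 when quiescent and at 21.4, 24.9 and 27.0 after LPS in WT. The fall after LPS, a log2 fold change of -0.85 (SE 0.12, adjusted p = 0.00014), is under the 2-fold limit; with each library scaled by all its reads, a choice added after the data were seen, it was -1.07 and called (adjusted p = 1.9e-05, range over all settings 7.2e-07 to 0.0014). That scaling shifts all genes of this comparison by -0.22.

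*Slc11a1* encodes NRAMP1, which moves iron and manganese out of the phagosomes of macrophages and microglia. It stood at 369, 439 and 382 RPM in WT quiescent microglia and at 839, 746 and 805 in WT LPS microglia. Each LPS library lay above each quiescent one, with a log2 fold change of 1.22 (SE 0.09, adjusted p = 1.20e-06), which is 0.94 and under the 2-fold limit after quantile normalization. The *SOD1G93A* LPS libraries, at 769, 769 and 784, fell within the WT LPS range. All 12 astrocyte libraries lay between 6.94 and 19.4 RPM, and WT quiescent and activated astrocytes overlapped, with a log2 fold change of 0.32 (SE 0.30, adjusted p = 0.45). In *SOD1G93A* astrocytes it went from 15.0, 19.4 and 14.3 to 11.6, 8.65 and 10.3, lower in all 3 activated libraries and not called, with a log2 fold change of -0.58 (SE 0.27, adjusted p = 0.092).

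Ceruloplasmin oxidises iron as it leaves the cell and is made by astrocytes in the brain. *Cp* rose from 66.0, 84.1 and 92.8 RPM in WT quiescent astrocytes to 2988, 2661 and 2717 in WT activated ones. In *SOD1G93A* astrocytes it rose from 110.2, 111 and 82.0 to 2409, 2455 and 2207. Activated and quiescent libraries were far apart in both genotypes. The log2 fold changes were 5.14 in WT (SE 0.13, adjusted p = 1.03e-09, 35.2-fold) and 4.63 in *SOD1G93A* (SE 0.14, adjusted p = 1.14e-13, 24.8-fold). Microglia also raised it, from 34.7, 19.2 and 31.0 to 128, 133 and 131 with LPS, a log2 fold change of 2.46 (SE 0.18, adjusted p = 8.15e-07). LPS thus brought WT microglia above every WT quiescent astrocyte library for this gene, and still below every activated one.

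Ferroportin, encoded by *Slc40a1*, is the only known exporter of iron from mammalian cells. It was found in microglia, at 23.0, 29.4 and 25.1 RPM when quiescent and at 10.2, 9.42 and 12.2 after LPS in WT. The groups do not overlap, and the log2 fold change was -1.06 (SE 0.16, limma adjusted p = 0.00019), just past the 2-fold limit. The call was lost without replicate 2 of the quiescent microglia (-0.95, adjusted p = 0.0014), without their replicate 3 (-1.08, adjusted p = 0.0011), without replicate 2 of the LPS microglia (-0.996, adjusted p = 0.00101) and without the intensity trend (adjusted p = 0.00101), and adjusted p ranged from 3.2e-06 to 0.0014 over all settings. In the same cells and condition *Cp* rose and *Slc40a1* fell. The *SOD1G93A* LPS microglia held 11.2, 10.6 and 13.9, overlapping WT.

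In astrocytes *Slc40a1* was near the detection limit and was not tested. WT quiescent libraries had 1, 0 and 13 reads, *SOD1G93A* quiescent ones 5, 7 and 5, WT activated ones 3, 4 and 3, and *SOD1G93A* activated ones 3, 1 and 1. The highest of these is 1.52 RPM, and the 4 conditions overlapped. Activated astrocytes therefore had much *Cp* and almost no *Slc40a1* mRNA.

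Ferritin heavy chain, *Fth1*, carries the ferroxidase site that loads iron into the shell. WT quiescent astrocytes held 1499, 1548 and 1638 RPM and WT activated ones 6374, 6338 and 6102. *SOD1G93A* astrocytes went from 1694, 1845 and 1632 to 5516, 5962 and 5590. Quiescent and activated libraries were apart in both genotypes. The log2 fold changes were 2.03 in WT (SE 0.12, adjusted p = 2.21e-07) and 1.81 in *SOD1G93A* (SE 0.11, adjusted p = 7.95e-10). Microglia began higher, at 14817, 17669 and 15842, and held 38888, 30916 and 32139 after LPS, a log2 fold change of 1.29 (SE 0.12, adjusted p = 6.15e-06). In all 6 LPS libraries of both genotypes *Fth1* drew more reads than any other gene, a statement on reads that is not adjusted for length.

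Ferritin light chain, *Ftl1*, aids the formation of the mineral core and moved less. In WT astrocytes it went from 1013, 986 and 1005 to 1899, 1981 and 1823 RPM. The groups do not overlap, and the log2 fold change of 0.95 (SE 0.09, adjusted p = 1.21e-05) is under the 2-fold limit, as is that of 0.91 in *SOD1G93A* astrocytes (SE 0.09, adjusted p = 2.91e-07). In WT microglia *Ftl1* was at 8663, 10650 and 9226 when quiescent and at 8346, 6625 and 6878 with LPS. No library of the LPS group exceeded the lowest quiescent one, yet the normalized counts of the groups overlap, with a log2 fold change of -0.17 (SE 0.12, adjusted p = 0.237). Its direction depends on the scaling, with -0.39 when libraries were scaled by all their reads and 0.19 after quantile normalization. Both ferritin genes have processed pseudogene copies, and how the authors' counting shared reads among them is not stated, so their levels are uncertain to that extent.

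The unequal movement of the chains changed their ratio in both cell types. Per kilobase of transcript, WT quiescent microglia held 1.78, 1.73 and 1.79 *Fth1* for each *Ftl1*, and WT LPS microglia 4.86, 4.86 and 4.87. WT quiescent astrocytes held 1.54, 1.64 and 1.70, and activated ones 3.50, 3.33 and 3.49. In *SOD1G93A* astrocytes the ratio went from 1.96, 1.89 and 1.83 to 3.62, 3.47 and 3.48. The ratio was thus below 2 in all 9 quiescent libraries and above 3 in all 12 activated or LPS libraries, and a single scaling factor per library leaves it unchanged. The 2 genes together drew 0.256% ± 0.007 of all reads in WT quiescent astrocytes, 0.817% ± 0.022 in activated ones, 2.56% ± 0.25 in WT quiescent microglia and 4.13% ± 0.52 in WT LPS microglia.

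**Figure D2:**
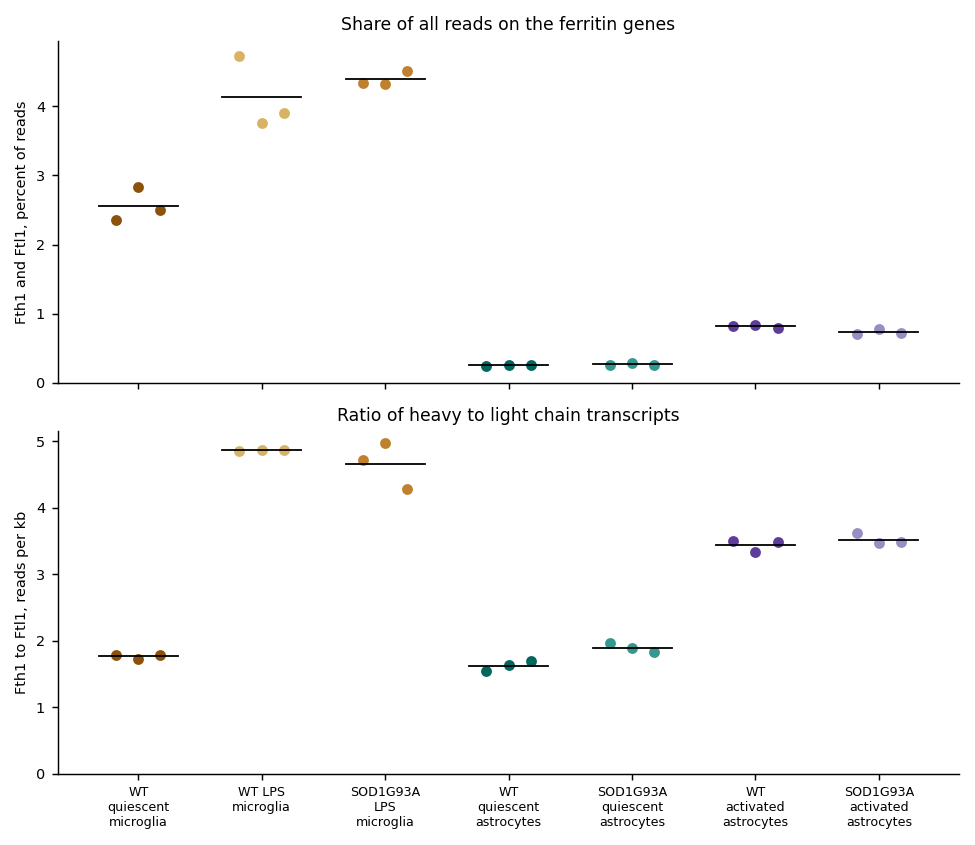
Share of all reads on *Fth1* and *Ftl1* in percent (above) and the ratio of *Fth1* to *Ftl1* in reads per kilobase of transcript (below), for each of 21 libraries as points with the group mean as a line. The share is at most 0.832% in every astrocyte library and at least 2.35% in every microglia library, while the ratio separates the 9 quiescent libraries, at 1.54 to 1.96, from the 12 activated or LPS ones, at 3.33 to 4.98.

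*Hmox1* breaks heme down to iron, biliverdin and carbon monoxide. It rose in activated astrocytes, from 68.4, 101 and 123 to 321, 319 and 284 RPM in WT. In *SOD1G93A* astrocytes it rose from 93.2, 97.5 and 75.9 to 285, 295 and 269. All activated libraries lay above all quiescent ones, with log2 fold changes of 1.72 in WT (SE 0.18, adjusted p = 2.23e-05) and 1.76 in *SOD1G93A* (SE 0.16, adjusted p = 1.04e-07). The WT call was lost in limma without the intensity trend (adjusted p = 0.0013, range over all settings 2.5e-22 to 0.0013). WT microglia held 1133, 1271 and 1208 when quiescent and 1223, 1063 and 1092 after LPS, groups that overlap. Their log2 fold change of 0.12 (SE 0.09, adjusted p = 0.264) turned to -0.10 when libraries were scaled by all their reads and to -0.11 after quantile normalization.

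**Figure D3:**
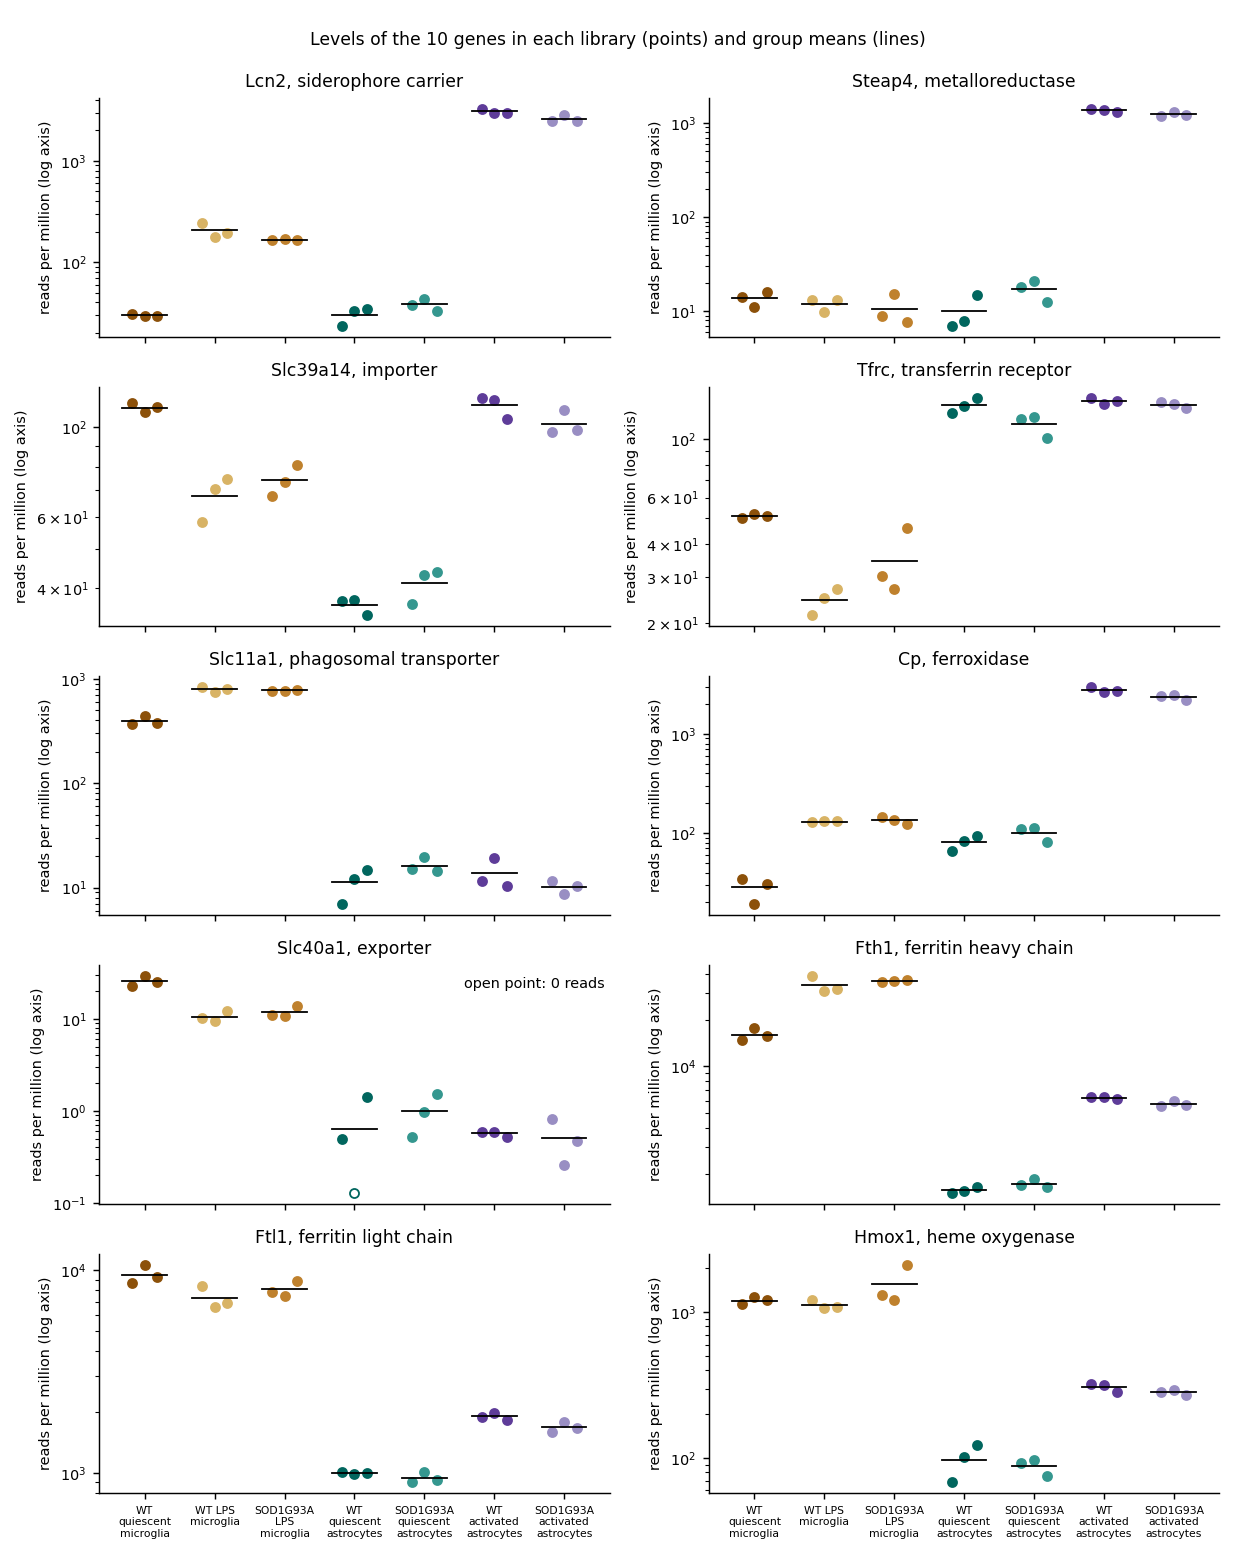
RPM on a log axis for the 10 genes in each of 21 libraries (points, 3 per condition) with the condition mean (line); an open point marks 0 reads. *Lcn2*, *Steap4* and *Cp* stand highest in the 6 activated astrocyte libraries, at 1191 to 3266, and *Slc40a1*, *Slc11a1*, *Fth1*, *Ftl1* and *Hmox1* are higher in every microglia library than in every astrocyte library.

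Comparing quiescent WT microglia with quiescent WT astrocytes, 6 of 10 genes were called higher in microglia and 0 lower, beside 22.5% and 24.8% of 12064 genes. The log2 differences were 5.82 for *Slc40a1* (SE 0.57), 5.75 for *Slc11a1* (SE 0.24), 4.24 for *Hmox1* (SE 0.20), 3.95 for *Fth1* (SE 0.18), 3.82 for *Ftl1* (SE 0.15) and 2.20 for *Slc39a14* (SE 0.09), with limma adjusted p at most 3.6e-06. After quantile normalization *Fth1* was at 2.62 and *Ftl1* at 2.39, their lowest values over all settings. The value of *Slc40a1* depends on the count added before the log, as its astrocyte counts are near 0. It reached the mean count of 10 through the microglia libraries, and was called in 15 of 16 settings. *Cp* at -0.96 (SE 0.21, adjusted p = 0.0018) and *Tfrc* at -0.81 (SE 0.10, adjusted p = 3.3e-05) were lower in all 3 microglia libraries without being called. Scaling by all reads, which shifts all genes by -0.58 here, gave -1.54 for *Cp* and -1.39 for *Tfrc*, and both were then called, as both were after quantile normalization (-1.15 and -1.19). *Cp* was also called without replicate 1 of the astrocytes (-1.13). *Lcn2* and *Steap4* were selected on their rise over these same WT quiescent astrocyte libraries, which favours higher values in microglia. Nothing is therefore read from their differences here, which are given as a description. *Steap4* was at 1.09 and not called, and passed the limits without replicate 3 of the astrocytes (1.44). For *Lcn2* the log2 difference was 0.58, and 0.01 with scaling by all reads.

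Microglia markers were present at a low level in the astrocyte libraries, beside the genes above that microglia hold at high levels. All 10 listed markers had reads, *Csf1r* being the most abundant in 3 of the 4 conditions, and their sum was 156, 218 and 273 RPM in WT quiescent astrocytes against 10352, 10878 and 10202 in WT quiescent microglia. The other sums were 346, 362 and 241 in *SOD1G93A* quiescent, 191, 306 and 165 in WT activated, and 229, 163 and 169.5 in *SOD1G93A* activated astrocytes. As a share of the level in WT quiescent microglia, the markers stood at 1.49% to 3.46% over the 12 libraries and *Slc11a1* at 1.75% to 4.90%. Replicate 2 of the WT activated astrocytes had the highest value of its group in both. CD45 panning had been used against microglia, and the part of any that remained in the astrocyte values of *Slc11a1* was not tested. *Hmox1* was at 5.69% to 10.2% of the microglia level in quiescent and at 22.4% to 26.6% in activated astrocytes. In *SOD1G93A* astrocytes all 3 activated marker sums lay below all 3 quiescent ones, as did *Slc11a1*.

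**Figure D4:**
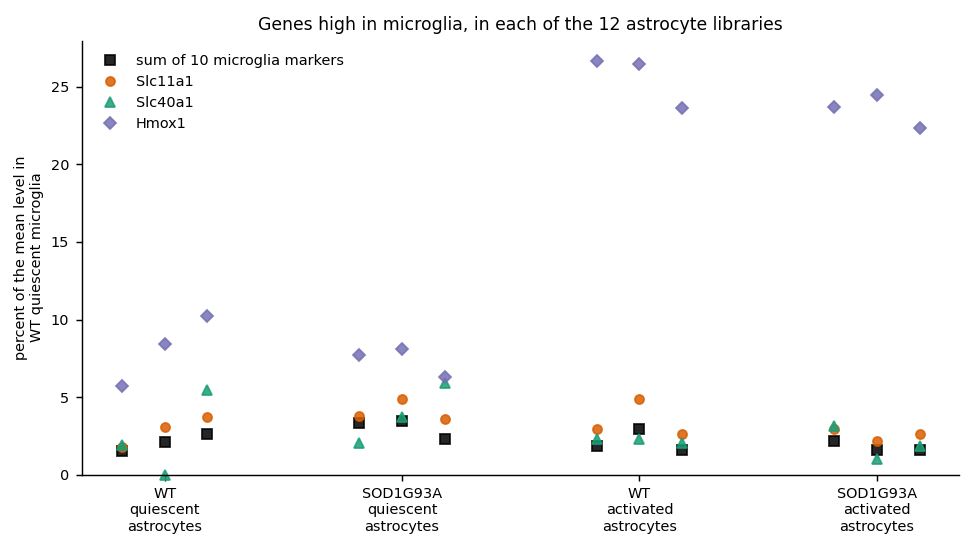
The summed level of 10 microglia markers and the levels of *Slc11a1*, *Slc40a1* and *Hmox1* in each of 12 astrocyte libraries, as percent of their mean level in WT quiescent microglia. Markers, *Slc11a1* and *Slc40a1* stay under 6% in all 12 libraries, and *Hmox1* lies between 22.4% and 26.6% in the 6 activated ones.

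Lists of markers of the other cell types that such cultures can hold were read in the same way. Astrocyte markers, 10 of 10 with reads, summed to 5544 ± 628 RPM in WT quiescent astrocytes, led by *Slc1a3*, and to 163 ± 7.32 in WT quiescent microglia. Oligodendrocyte lineage markers summed to 2922 ± 89.2 in WT quiescent and 1075 ± 30.9 in WT activated astrocytes, with *Olig1* the most abundant at 1799 and 531, in cultures from which O4-positive cells had been panned out. WT quiescent microglia held 1339.9 ± 21.2 on that list, of which *Cspg4* made 1229, and WT LPS microglia 106 ± 3.57, with *Cspg4* at 65.6. The microglia markers also fell with LPS, from 10477 ± 355 to 2852 ± 58.9, beside the changes of the genes above. Neutrophils and monocytes, in which *Lcn2* is a granule gene, had 11 of 12 listed markers in the tables. Their sum was 0.452 ± 0.561 in WT quiescent and 1.35 ± 0.89 in WT activated astrocytes, where *S100a8*, *S100a9*, *Mpo*, *Elane*, *Ngp* and *Retnlg* were at 0 and *Camp* made 1.08, from 0 in all 3 quiescent libraries. In microglia this list went from 5.14 ± 1.79 to 80.6 ± 6.33 with LPS, of which *Mmp8* made 63.6, with *Elane*, *Ngp* and *Retnlg* at 0 after LPS. Others on it were higher after LPS too, *Ccr2* at 7.39 from 2.43, *Ly6c2* at 5.26 from 0.081, *S100a8* at 2.03 from 0.486, *Camp* at 1.65 from 0.033 and *Mpo* at 0.618 from 0. *Mpo* passed 3 reads in replicate 1 of the WT LPS microglia alone. *Cxcr2*, at 0.195 when quiescent and 0.065 after LPS, was at or under 3 reads in every WT microglia library, so no direction is given. Mice were perfused to clear blood cells before microglia were taken, and the part of any that remained in the *Lcn2* of LPS microglia was not tested. Endothelial markers stood at 146 ± 8.30 in WT activated astrocytes, of which *Flt1* made 144 while *Cldn5* was at 0, and at 10.7 ± 2.35 in quiescent ones. Pericyte and fibroblast markers were at most 50.0 ± 4.73, led by *Lum* in WT activated astrocytes, neuron markers at most 964 ± 46.2, nearly all *Map2*, and erythroid markers at most 0.415 ± 0.129 with *Hbb-bs* at 0. With activation the neuron sum went from 890 ± 122 to 419 ± 30.9 in WT and from 964 to 406 ± 17.1 in *SOD1G93A*. The pericyte and fibroblast sum went from 12.5 ± 3.97 to 50.0 in WT and from 8.71 ± 0.562 to 36.7 ± 2.16 in *SOD1G93A*. Astrocyte markers went from 5544 to 4558 ± 13.1 in WT, and overlapped in *SOD1G93A*, at 4678 ± 492 and 4484 ± 42.1. The part of these shifts, that of the oligodendrocyte lineage included, in the values above and in those of the other iron genes below was not tested.

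Genotype moved none of the 10 genes past the limits. The WT astrocyte libraries that selected *Lcn2* and *Steap4* enter the astrocyte comparisons, which favours higher quiescent values, lower activated values and a smaller rise in *SOD1G93A* for these 2 genes, so nothing is read from their differences there. In quiescent astrocytes 0 of 9 were called by limma, by DESeq2 or by edgeR, beside 0% of 12271 genes, of which DESeq2 called 7 and edgeR 0. At an unadjusted p under 0.05 there were 2, *Steap4* and *Tfrc*, beside 8.70% of all genes, and the groups did not overlap for 1, *Tfrc*, beside 14.6%. *Steap4* had overlapping groups. *Tfrc* was lower in all 3 *SOD1G93A* libraries, by -0.26 (SE 0.11, adjusted p = 0.543), and by -0.17 without replicate 3 of the *SOD1G93A* group.

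In activated astrocytes 0 of 9 genes were called by limma, DESeq2 or edgeR, beside 0.645% of 12098 genes. At an unadjusted p under 0.05 there were 3, *Lcn2*, *Cp* and *Ftl1*, beside 20.4% of all genes, and for 3, *Lcn2*, *Cp* and *Fth1*, every *SOD1G93A* library was below every WT one in normalized counts, as *Ftl1* also was in RPM, where 24.1% of all genes had groups apart in either direction. Nothing is read from *Lcn2*, whose WT libraries selected it. The log2 fold changes were -0.20 for *Cp* (SE 0.07, limma adjusted p = 0.072) and -0.10 for *Fth1* (SE 0.07, limma adjusted p = 0.444). Over all settings of limma, DESeq2 and edgeR the adjusted p ranged from 0.00294 to 0.398 for *Cp* and from 0.0584 to 0.728 for *Fth1*. The lower bounds of their 95% intervals are -0.34 and -0.24, short of a 2-fold fall.

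The test of whether activation itself differed between the genotypes called 0 of 9 genes with limma, DESeq2 or edgeR, beside 0% of 12269 genes, of which DESeq2 called 22 and edgeR 4. An unadjusted p under 0.05 was reached by 4, *Lcn2*, *Steap4*, *Cp* and *Slc11a1*, beside 8.30% of all genes. Nothing is read from *Lcn2* and *Steap4*, since their WT rise, one side of this test, selected them. The log2 differences of the others were -0.50 for *Cp* (SE 0.19, adjusted p = 0.49) and -0.89 for *Slc11a1* (SE 0.38, adjusted p = 0.538).

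In LPS microglia 0 of 10 genes were called by the 3 tools, beside 0% of 10679 genes, of which DESeq2 called 3 and edgeR 0. An unadjusted p under 0.05 was reached by 3, *Lcn2*, *Tfrc* and *Hmox1*, beside 8.71%, and the same 3 had groups that did not overlap in normalized counts, beside 18.2%. *Lcn2* was lower in *SOD1G93A* by -0.30 (SE 0.12, adjusted p = 0.573). *Tfrc* was higher by 0.47 (SE 0.20, adjusted p = 0.573), and by 0.25 without replicate 3 of the *SOD1G93A* group. *Hmox1* was higher by 0.43 (SE 0.19, adjusted p = 0.573), at 1324, 1219.9 and 2117 RPM against 1223, 1063 and 1092, which overlap in RPM. Replicate 3 of the *SOD1G93A* group stands apart in this gene, and without it the log2 fold change was 0.20 (adjusted p = 0.893, range over all settings 0.472 to 0.893). The same library held 4711 RPM on the 10 microglia markers, against 3148 and 3099.5 in the other 2 of its group and 2785 to 2898 in WT LPS microglia, and its *Cx3cr1* was 769 against 444 and 417. The part of that library's state in these values was not tested.

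Other genes of iron metabolism were read from a list of 51 in 7 roles, all of them in the tables and 38 of them tested in at least 1 comparison. Activation of WT astrocytes raised 8 of 36 tested and lowered 1, beside 6.0% and 5.54% of all genes, and the median log2 fold change was -0.05 against 0.01 over all genes. In uptake, *Slc11a2*, which carries iron out of endosomes, rose by 2.20 (SE 0.13, adjusted p = 2.7e-07) and transferrin, *Trf*, by 1.13 (SE 0.11, adjusted p = 1.2e-05). In export, the ferroxidase *Heph* fell by 1.23 (SE 0.15, adjusted p = 6.8e-05), opposite to its relative *Cp*. Oligodendrocyte lineage markers fell in the same comparison, from 2922 to 1075 RPM, and the part of that fall in *Heph* was not tested. *Hfe*, a partner of the transferrin receptor, rose by 1.30 (SE 0.22, adjusted p = 0.00080), a call made in 10 of 17 settings.

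The remaining called genes of the list in WT astrocytes belong to delivery, heme and lipocalin-2 partners. The iron chaperone *Pcbp3* rose by 2.04 (SE 0.14, adjusted p = 6.7e-07). Of heme genes, *Slc48a1*, a heme carrier of the lysosome, rose by 1.12 (SE 0.08), *Blvrb*, a biliverdin reductase, by 1.04 (SE 0.13), and *Mfsd7c*, also called *Flvcr2*, went from 0.836 ± 0.346 to 20.4 ± 0.932 RPM, with adjusted p of 1.1e-06, 7.6e-05 and 9.3e-07. *Mmp9*, whose protein forms a complex with lipocalin-2, went from 0.144 ± 0.249 to 32.9 ± 4.86 (adjusted p = 6.8e-07). *Mfsd7c* and *Mmp9*, both counted among the genes called higher, reached the mean count of 10 through the activated libraries. Their fitted folds therefore depend on the count added before the log. *Slc22a17*, a lipocalin-2 receptor, was at 155 ± 20.9 in WT quiescent and 76.6 ± 4.36 in WT activated astrocytes, a log2 fold change of -0.98 that is under the 2-fold limit (SE 0.10, adjusted p = 1.8e-05).

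*SOD1G93A* astrocytes had 6 of 36 list genes called higher and 2 lower on activation, beside 6.74% and 6.59% of all genes, with a median of 0.03 against 0.00 over all genes. *Slc11a2* rose by 2.11, *Pcbp3* by 2.22, and *Hfe* by 1.17, while *Heph* fell by 1.57 and *Slc22a17* by 1.21, with adjusted p at most 0.00025. *Mmp9* reached 18.9 ± 0.678 RPM from 0.543 ± 0.552, *Mfsd7c* 16.6 ± 0.776 from 1.54 ± 0.705, and *Steap1*, another reductase, 4.78 ± 0.0884 from 0.701 ± 0.213. *Mmp9*, *Mfsd7c* and *Steap1*, all counted among the genes called higher, reached the mean count of 10 through the activated libraries. Their fitted folds depend on the count added before the log and are not given. The 3 iron regulatory genes *Aco1*, *Ireb2* and *Fbxl5* and the 7 mitochondrial genes held 0 calls in either genotype.

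In WT microglia LPS raised 4 of 31 list genes and lowered 3, near the 10.2% and 10.6% of all genes, with a median of 0.07 against 0.00. *Slc11a2* rose by 1.73 (SE 0.09, adjusted p = 4.5e-08), as in astrocytes, and *Slc25a37*, the mitochondrial iron importer mitoferrin 1, by 1.70 (SE 0.16, adjusted p = 5.5e-06). *Mfsd7c* went from 0.554 ± 0.250 to 18.6 ± 4.15 RPM and *Hp*, the hemoglobin binder haptoglobin, from 0.196 ± 0.196 to 3.91 ± 1.39. Quiescent *Hp* values were under the level of 3 reads in every library. Both genes reached the mean count of 10 through the LPS libraries, so their fitted folds depend on the count added before the log. *Steap3*, an endosomal ferrireductase, fell by 2.20 (SE 0.17, adjusted p = 1.6e-06), *Slc39a8*, the relative of *Slc39a14*, by 2.15 (SE 0.22, adjusted p = 1.4e-05), and *Hfe* by 2.02 (SE 0.18, adjusted p = 4.1e-06). *Hfe* was higher in activated astrocytes and lower here, under another stimulus. Hepcidin, *Hamp*, the peptide that removes ferroportin from the membrane, was at 0 in quiescent microglia and in all astrocyte libraries and at 0.579 ± 0.317 in WT LPS microglia.

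Genotype moved 0 of 33, 34 and 32 list genes tested past the limits in quiescent astrocytes, activated astrocytes and LPS microglia, with limma, DESeq2 or edgeR, and 5, 8 and 2 had an unadjusted p under 0.05 in limma, beside 8.70%, 20.4% and 8.71% of all genes. The closest was *Mmp9* in activated astrocytes, named after its value was seen, lower by -0.74 in *SOD1G93A* (SE 0.13, adjusted p = 0.00091), with 37.4, 27.8 and 33.6 RPM in WT and 19.6, 18.8 and 18.3 in *SOD1G93A*. All 3 *SOD1G93A* libraries lay below all WT ones, and the difference is under the 2-fold limit.

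Patterns over the 7 conditions were compared with those of 12380 genes by the root mean square difference of centred log2 condition means, a measure of likeness in which 0 is identical. Nearest to *Lcn2* were *Timp1* at 0.37, *Tgm1* at 0.53 and *Cxcl5* at 0.57. Nearest to *Steap4* were *Tslp* at 0.23, *Ptx3* at 0.46 and *Sele* at 0.47. *Tgm1*, *Cxcl5* and *Sele* are near 0 at rest, so their values depend on the count added before the log, and for the same reason none is given for *Slc40a1*. *Hmox1* had *Hivep3* at 0.20, *Hk2* at 0.21 and *Tor4a* at 0.22. *Timp1*, an inhibitor of metalloproteinases, showed the same order as *Lcn2*, with 909 RPM in WT activated astrocytes, 47.2 in WT LPS microglia and 15.2 in WT quiescent astrocytes.

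Sequence separates the genes into those with and without the hairpin that iron regulatory proteins read. The iron-responsive element was searched in the untranslated regions of 21703 principal transcripts of the GRCm38 annotation as an unpaired C, 5 bases, the loop CAGTGN and 5 bases that pair with the first 5, G with T allowed. It was found in 125 transcripts, 0.576%, of which 21 hold it in the 5′ region and 104 in the 3′ region, and in 4 of the 10 genes. Those were the storage genes *Fth1* and *Ftl1* and the exporter *Slc40a1*, each with 1 in the 5′ region, and the importer *Tfrc*, with 4 in the 3′ region. The sites are shown as sequence only. On LPS the RNA of *Fth1* rose, that of *Slc40a1* fell, *Tfrc* was lower in all 3 libraries and *Ftl1* was not called. The hairpin can act on translation, which RNA levels do not measure, so nothing on iron control is read from these changes. The loop is in capitals; the strand follows each position.
*Fth1*, chr19:9982733-9982759, plus strand: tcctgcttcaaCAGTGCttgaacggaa
*Ftl1*, chr7:45459780-45459806, minus strand: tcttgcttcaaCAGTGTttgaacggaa
*Slc40a1*, chr1:45925466-45925492, minus strand: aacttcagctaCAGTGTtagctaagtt
*Tfrc*, chr16:32631220-32631246, plus strand: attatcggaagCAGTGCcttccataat
*Tfrc*, chr16:32631599-32631625, plus strand: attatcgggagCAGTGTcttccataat
*Tfrc*, chr16:32631664-32631690, plus strand: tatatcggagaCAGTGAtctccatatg
*Tfrc*, chr16:32631711-32631737, plus strand: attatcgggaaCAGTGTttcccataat
The other 6 genes, among them all 3 that rose most in activated astrocytes, held no match, which says only that these letters are absent. Of 48 list genes searched, *Alas2*, the erythroid enzyme of heme synthesis, held 1 in its 5′ region. A match is a description of sequence and not of binding.

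RefSeq promoters on GRCm38.p6, 250 bases before to 50 after a start, were found for 7 of the 10 genes, 10 promoters in all. They were searched on both strands for the NF-κB consensus, the antioxidant response element TGACNNNGC and the C/EBP core TTGCNNAA, which 5.8%, 12.4% and 10.8% of 32851 promoters hold. *Steap4* held the NF-κB consensus at -226 to -217 and the C/EBP core at -87 to -80 from its start, *Lcn2* the C/EBP core at -216 to -209, *Cp* 1 such core in 1 of its 2 promoters, and *Fth1* 2 in 1 of its 2. *Ftl1*, *Tfrc* and *Slc11a1* held none of the 3 motifs, and the antioxidant response element was in none of the 10. The promoters of the 2 genes with the largest rise in activated astrocytes are shown, with matches in capitals.
*Lcn2*, chr2:32387690-32387989, minus strand: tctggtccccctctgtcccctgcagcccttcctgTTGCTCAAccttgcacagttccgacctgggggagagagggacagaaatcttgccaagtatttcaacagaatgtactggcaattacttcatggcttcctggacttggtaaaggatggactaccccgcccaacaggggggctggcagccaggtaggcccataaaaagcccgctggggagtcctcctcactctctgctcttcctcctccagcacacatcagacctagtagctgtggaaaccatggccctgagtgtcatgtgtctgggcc
*Steap4*, chr5:7960222-7960521, plus strand: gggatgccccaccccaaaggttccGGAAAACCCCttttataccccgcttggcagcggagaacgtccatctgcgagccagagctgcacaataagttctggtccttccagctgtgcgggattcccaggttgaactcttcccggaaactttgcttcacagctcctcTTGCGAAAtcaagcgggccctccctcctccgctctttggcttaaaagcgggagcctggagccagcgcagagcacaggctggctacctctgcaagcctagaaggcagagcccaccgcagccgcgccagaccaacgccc
*Slc39a14*, *Slc40a1* and *Hmox1* have no promoter in the table. No measurement here bears on factor binding at these sites.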

How the data were processed

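Values came from 6 tables that the authors deposited, with reads aligned to mm10 by STAR and counted by RSEM. Their per-library signal is the normalized count the authors' DESeq2 gave within each comparison. Dividing by each column's step recovered whole reads (tolerance 0.001) for 100.0% of values. The authors' fold changes and p-values were not used, and 3 libraries of quiescent *SOD1G93A* microglia are not analysed here. Tables with both groups were fitted with limma 3.58.1 (R 4.3.3) on log2(count + 1); other contrasts used recovered reads with joint size factors, the activation and genotype terms in 1 fit of 12 astrocyte libraries. Alternatives were DESeq2 1.42.0, edgeR 4.0.16, other scalings, filters and pseudocounts, a replicate block and leaving out each library. The fits were checked on simulated data, and no result given here rests on that check. The members and lists were chosen with earlier results of these data known. Up to 4 called list genes with the largest change are named per role, and further list genes are named without a call. With 3 against 3, an exact test cannot go below 0.1.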

Additional observations from a re-analysis of the deposited data

Results flagged for a closer look

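Of 32 genes searched, 2 had genotype differences that ran in opposite directions in 2 cell types, with every library of one genotype on one side in each. Groups did not overlap, in either direction, for 14.6% of all genes in quiescent astrocytes, 24.1% in activated astrocytes and 18.2% in LPS microglia, and the difference between the cell types was not tested. *Tfrc* had a log2 fold change of -0.26 in quiescent astrocytes, with 119, 121 and 101 RPM in *SOD1G93A* against 126, 134 and 144 in WT, and of 0.47 in LPS microglia, with 30.3, 27.1 and 46.0 against 21.4, 24.9 and 27.0. Neither passed (limma adjusted p = 0.543 and 0.573), and the second was 0.25 without replicate 3 of the *SOD1G93A* LPS microglia. *Slc48a1*, the heme carrier of the lysosome, had -0.13 in activated astrocytes (adjusted p = 0.225) and 0.39 in LPS microglia (adjusted p = 0.573), where that same replicate held 486 RPM against 318 and 303. Groups of 3 are too small for a test of single libraries that stand apart.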

How the results depend on the processing

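The number of the 10 genes called was within 1.5 times its value under every alternative in 7 of 8 comparisons, with 4 to 7 under LPS and 5 to 7 in WT and 6 to 8 in *SOD1G93A* astrocytes on activation. The exception is quiescent microglia against astrocytes, with 10 called instead of 6 at an adjusted p under 0.05 with any fold change. The same looser limit called 22, 19, 4 and 17 list genes, instead of 9, 7, 0 and 8, in WT activation, LPS, genotype in activated astrocytes and *SOD1G93A* activation. A minimum of 10 in every library left 5 of the 8 list genes in *SOD1G93A* activation, since genes under 10 in any library are then not tested. Of 1372 fits of single genes, 6 lost a call and 7 gained one, all named above. Leaving out single libraries gave 4 to 5 genes under LPS and 6 to 7 between cell types. Replicate numbers do not pair the samples (correlations of deviations from -0.436 to 0.059), and a replicate block left 6, 5, 0, 0, 0, 6 and 0 of the 10 genes called and, of all genes, 1423 instead of 1424 in WT activation, 2201 instead of 2263 under LPS, 100 instead of 78 for genotype in activated astrocytes and 1576 instead of 1635 in *SOD1G93A* activation. With median-ratio scaling over all 21 libraries, 59 of 70 condition levels moved by more than 1 SD and 11 did not, 57 of 70 places in the order of levels were kept, and 4 of 164 pairs of conditions that do not overlap changed order, 3 of them in *Slc39a14*. Depth limits *Slc40a1* in astrocytes most, at 13 reads or fewer.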
